A study of Mus musculus with 564 samples.

Results

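The Schlafen (Slfn) genes of the mouse lie side by side on chromosome 11, and the acetylation of histone H3 at lysine 27 (H3K27ac) across this cluster was followed in bone marrow-derived macrophages (BMDMs). Of the 59190 cis-regulatory elements in the deposited table, 18 had their centre within 25 kb of a RefSeq transcription start of Slfn1, Slfn2, Slfn3, Slfn4, Slfn5, Slfn8 or Slfn9. They are numbered S1 to S18 by position here and span 241.831 kb of the mm10 build, chr11:82951262-83193092. The farthest of them lay 20.191 kb from a start, and the nearest element outside the limit lay 32.896 kb away. The rule uses position alone, but the cluster was picked for description with earlier results of these data known.

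The macrophages were primary cells differentiated in culture from the bone marrow of wild-type mice. Before any stimulus they received, for 1 h, either the vehicle DMSO or one of the clinical kinase inhibitors (CKIs) tested, 58 in number. Lipopolysaccharide (LPS), the bacterial ligand of TLR4, or interleukin 4 (IL-4) was then added at 10 ng/mL and cells were taken after 30 min, 1 h, 2 h and 4 h, beside unstimulated (UT) cells. The titles place the UT cells at 0 h and the treatment labels at 4 h without stimulus, and all differences from UT rest on these libraries. H3K27ac ChIP-seq gave 564 libraries, 18 from DMSO cells (9 groups of 2 replicates) and 546 from CKI-treated cells, with 6 to 13 libraries per CKI. Among the CKI groups, 474 held 1 library and 36 held 2. The labels do not say whether replicates came from separate cultures or animals, so p-values measure only the spread between these libraries, which may be technical. Values are reads in an element after the scaling of each library to a common level by the authors, and log2 differences are on the log2(value + 5) scale.

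H3K27ac marks active promoters and enhancers, and its gain or loss at an element is commonly read as a change in regulatory activity. The Schlafen family is known as a group of interferon-inducible genes of mammals, expressed in immune cells, whose products have been tied to the control of proliferation, to T cell quiescence and to the restriction of viruses. Mouse members are sorted by length: Slfn1 and Slfn2 are short forms, Slfn3 and Slfn4 intermediate forms, and Slfn5, Slfn8 and Slfn9 long forms with a helicase-like domain. In macrophages, TLR4 is known to induce interferon-beta, which acts back on the cells through its receptor and the JAK kinases. The interferon-stimulated response element (ISRE) is the DNA motif known from promoters of genes that respond to it. IL-4 signals through JAK kinases and STAT6.

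The starts of 6 of the 7 genes lay inside an element. These were S1 (Slfn5, chr11:82951262-82953826), S3 (Slfn9, chr11:82990370-82993823), S5 (Slfn8, chr11:83019474-83021670), S10 (Slfn2, chr11:83062416-83068519), S14 (Slfn1, chr11:83114536-83119060) and S18 (Slfn3, chr11:83190449-83193092). No element overlapped the Slfn4 start, and S17 (chr11:83172440-83174198), centred 1853 bp upstream of it in intergenic sequence, stands for Slfn4. The remaining 11 elements were S2 in Slfn5 and S4 in Slfn8, S6 over the start of the pseudogene Slfn10-ps, S7, S8, S9, S11, S12 and S13 around Slfn2, and S15 and S16 downstream of Slfn1.

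The ISRE letters (GAAA, any 2 bases, GAAA), searched on both strands of the central 1400 bp, were present in 7 of the 18 elements (S1, S3, S5, S12, S13, S16 and S17), against 19.3% of all elements of the table. In promoter windows of 300 bp from RefSeq (GRCm38.p6, the assembly of mm10), all 7 members matched, and the motif was present in those of Slfn5, Slfn8 and Slfn9, against 3.44% of 32851 windows. It began 45 bases upstream of the Slfn9 start and 48 bases upstream of one Slfn8 start. The 200 bases before these starts are shown because both of these long forms hold the same motif letters close to the start. Both are on the minus strand, with the motif in capitals (Slfn9 is chr11:82991831-82992030, Slfn8 is chr11:83020811-83021010).
Slfn9: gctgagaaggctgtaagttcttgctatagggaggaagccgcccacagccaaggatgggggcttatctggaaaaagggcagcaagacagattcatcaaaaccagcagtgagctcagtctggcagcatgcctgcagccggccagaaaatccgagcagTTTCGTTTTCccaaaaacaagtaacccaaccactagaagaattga
Slfn8: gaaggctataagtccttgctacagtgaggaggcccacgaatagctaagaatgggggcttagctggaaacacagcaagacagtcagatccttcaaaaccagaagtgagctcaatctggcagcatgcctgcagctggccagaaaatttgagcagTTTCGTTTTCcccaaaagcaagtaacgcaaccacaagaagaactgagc
The alignment of these stretches was identical in 168 of 207 columns (81.2%). The Slfn5 match lay on the plus strand, inside chr11:82951937-82951966.
Slfn5: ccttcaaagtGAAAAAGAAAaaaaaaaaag

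Further ISRE letters lay in elements outside promoters, and these stretches of S12, S13, S16 and S17 are shown beside the time courses given for them here. All are plus-strand sequence of mm10 with the motif in capitals: S12 at chr11:83078215-83078277, S13 at chr11:83082396-83082445, S16 at chr11:83126730-83126779 and S17 at chr11:83173436-83173485.
S12: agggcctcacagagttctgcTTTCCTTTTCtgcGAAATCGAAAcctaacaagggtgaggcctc
S13: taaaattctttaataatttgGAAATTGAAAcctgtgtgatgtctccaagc
S16: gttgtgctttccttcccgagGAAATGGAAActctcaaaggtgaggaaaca
S17: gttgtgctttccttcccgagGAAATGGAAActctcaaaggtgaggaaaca
The S16 and S17 stretches were identical. Of all 51-base words of S16, 44.9% also occurred in S17, and 87.5% of the words of S16 and 49.3% of those of S17 occurred more than once in the genome. The figure was 88.1% for S11, 28.7% for S15 and at most 14.2% for every other element. Reads of the lengths sequenced here therefore cannot all be assigned to one of S11, S16 or S17. The values of these 3 elements are uncertain to that extent. S15, directly before S16, carries the same limit to a lesser extent, with 26.5% of its words repeated within the cluster. A motif match describes letters and does not show binding. The gamma-activated letters TTCNNNGAA were found in 5 of the 18 (36.1% of all elements; in S12 one match overlapped an ISRE match), the STAT6-type letters (TTC, any 4 bases, GAA) in 5 (33.1%), the AP-1 letters TGANTCA in 6 (43.5%), the PU.1 letters GAGGAAGT in 4 (17.1%) and the NF-kB letters (GGGA, any base, TTTCC) in 0 (2.28%).

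The first comparison asked how the cluster responded to LPS in DMSO cells. H3K27ac rose at 17 of the 18 elements and fell at none, with the moderated F-test of limma over the 4 times (adjusted p under 0.01, with a log2 difference past 1 at any time, and the direction read at the largest difference). Over all 50697 elements tested, 53.5% were called, 29% higher and 24.6% lower. The median log2 difference of the 18 elements was 0.08 at 30 min, 0.78 at 1 h, 1.74 at 2 h and 1.58 at 4 h, against 0.05, 0.09, 0.02 and 0.08 over all elements.

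Among the long forms, the Slfn9 start rose most. At S3 the UT libraries held 256 and 268, the 30-min libraries 292 and 298, the 1-h libraries 506 and 517, the 2-h libraries 1300 and 1162 and the 4-h libraries 1093 and 1022. Both libraries of each later time lay above both UT libraries, and the gain at 2 h was 2.21 (SE 0.11, adjusted p 3.32e-20). At the Slfn5 start, S1, the UT values of 301 and 302 were followed by 282 and 300 at 30 min, 535 and 464 at 1 h, 922 and 822 at 2 h and 900 and 866 at 4 h, a log2 gain of 1.53 at 4 h (SE 0.11, adjusted p 2.15e-16). At 30 min the S1 values had not left the UT level. The Slfn8 start, S5, began higher at 525 and 559 and read 515 and 561, then 844 and 814, then 1385 and 1341, then 1244 and 1138. Its gain at 2 h was 1.32 (SE 0.10, adjusted p 7.90e-16). Per kb of element, the UT level was 247 at S5, 118 at S1 and 75.9 at S3, and at 2 h it was 620, 340 and 356. The elements vary in width from 1561 to 6104 bp and the study describes a fixed window, so values per kb and their order depend on these widths.

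The short forms behaved unlike each other. The Slfn1 start, S14, held 158 and 129 in UT, fell to 48 and 75 at 30 min, stood at 290 and 247 at 1 h and reached 1594 and 1589 at 2 h and 1722 and 1516 at 4 h. The mean went from 143.5 ± 20.5 (SD, n = 2) to 1619 ± 146 (SD, n = 2). The 30-min libraries lay below both UT libraries (log2 difference −1.18, adjusted p at that time 3.79e-08), and the 2-h and 4-h libraries lay above all earlier ones, with a gain of 3.46 at 4 h over UT (SE 0.15, adjusted p 1.37e-24). Slfn2, which is known to keep T cells quiescent, had at S10 the highest values of the cluster before stimulation, 1157 and 1214. S10 is also the widest element, at 6104 bp, and per kb its UT level of 194 was below that of S5. It read 1861 and 1827 at 30 min, 2020 and 1861 at 1 h, 2309 and 2202 at 2 h and 2220 and 2073 at 4 h. All 8 LPS values lay above UT, but the largest difference, 0.93 at 2 h (SE 0.07, adjusted p 1.08e-12), was under the threshold of 1, and S10 was the only element not called.

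Among the intermediate forms, S17 near the Slfn4 start had the widest range. Its UT libraries held 71 and 81, followed by 38 and 63 at 30 min, 134 and 101 at 1 h, 1001 and 1158 at 2 h and 1300 and 991 at 4 h. The 2-h and 4-h libraries lay far above the earlier ones, with a log2 gain of 3.82 at 4 h (SE 0.18, adjusted p 8.99e-23). At 30 min S17 was 0.58 below UT (adjusted p at that time 0.00771). The Slfn3 start, S18, held 189 and 184 in UT, 208 and 237 at 30 min, 328 and 312 at 1 h, 697 and 617 at 2 h and 649 and 596 at 4 h, a gain of 1.79 at 2 h (SE 0.13, adjusted p 1.16e-15). Per kb, S17 reached 651 at 4 h, above S5 (542), S14 (358), S10 (352), S1 (344), S3 (306) and S18 (235).

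**Figure D1:**
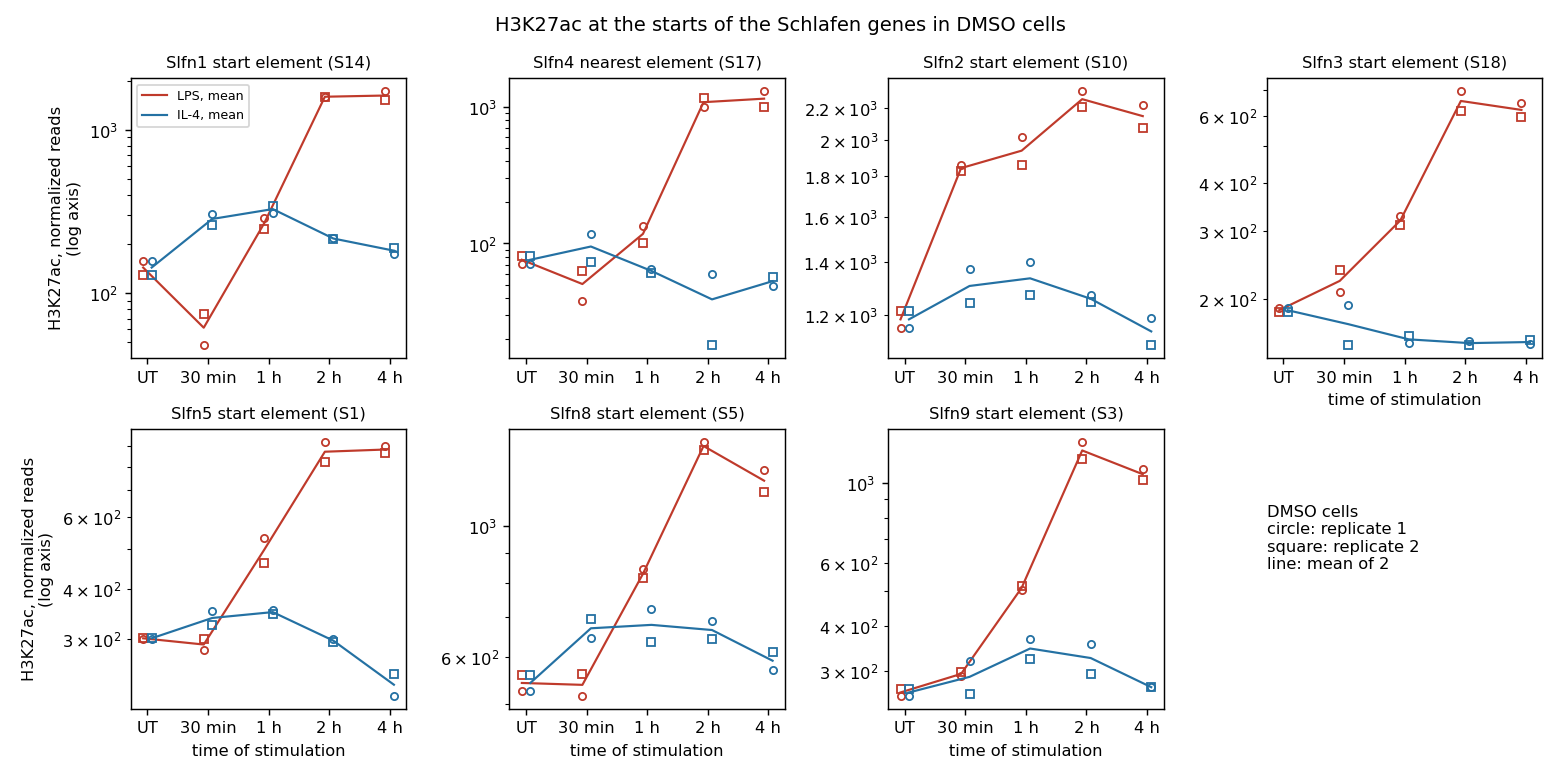
H3K27ac in DMSO cells at the 7 elements at or nearest the Schlafen starts, with each point 1 library, lines through the group means and the scaled value on a log axis that differs between panels. Time points are evenly spaced and not to scale. S14 rose from 158 and 129 in UT to 1722 and 1516 after 4 h of LPS, while S10 stayed between 1157 and 2309 over UT and LPS.

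Away from the starts, the elements fell into those that had risen by 30 min and those that had not. S7 (chr11:83043181-83046661), intergenic and 20191 bp upstream of Slfn2, held 681 and 685 in UT and 1803 and 1737 at 30 min, and then 1579 and 1597, 1755 and 1833, and 1877 and 1643. Its log2 gain was 1.37 at 30 min and 1.36 at 4 h (SE 0.08, adjusted p 1.87e-17). S6 (chr11:83038498-83041909) at Slfn10-ps went from 384 and 357 to 919 and 913 at 30 min and to 1137 and 1193 at 2 h, a gain of 1.30 and then 1.64 (SE 0.10, adjusted p 1.73e-16). Both had thus reached most of their gain by the earliest time. S8 (chr11:83057292-83058899) and S9 (chr11:83059868-83061466), 7016.5 and 4445 bp upstream of Slfn2, also rose early. S8 went from 56 and 56 to 129 and 117 at 30 min and to 164 and 200 at 2 h, a largest gain of 1.61 (SE 0.18, adjusted p 2.47e-09). S9 went from 51 and 29 to 114 and 121 at 30 min and to 189 and 184 at 1 h, a largest gain of 2.13 (SE 0.21, adjusted p 9.04e-11).

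Downstream of Slfn2, S13 (chr11:83081496-83083758) first fell and then rose. It held 141 and 106 in UT, 33 and 69 at 30 min, 106 and 111 at 1 h, 426 and 420 at 2 h and 252 and 214 at 4 h. The log2 difference was −1.26 at 30 min (adjusted p at that time 6.16e-06) and 1.75 at 2 h (SE 0.21, adjusted p of the F-test 1.32e-13). Its neighbour S12 (chr11:83077360-83079133) held 498 and 453 in UT, 366 and 388 at 30 min, 656 and 626 at 1 h, 1192 and 1176 at 2 h and 973 and 854 at 4 h, and rose by 1.31 at 2 h (SE 0.11, adjusted p 1.12e-15). S11 (chr11:83071896-83075097) never passed 34 in any DMSO LPS library, and its call (1.01 at 2 h, SE 0.49, adjusted p 0.00523) was lost without the second 30-min LPS library (adjusted p 0.0687) or the second 4-h LPS library (adjusted p 0.0103).

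The elements downstream of Slfn1 fell at 30 min and rose late. S15 (chr11:83124266-83125862), 8244 bp from the Slfn1 start, held 46 and 48 in UT, 8 and 16 at 30 min, 77 and 32 at 1 h, 721 and 689 at 2 h and 932 and 698 at 4 h. Its log2 difference was −1.65 at 30 min (adjusted p at that time 9.71e-07) and 3.96 at 4 h (SE 0.25, adjusted p 4.65e-21), the largest gain among the 18 elements. S16 (chr11:83125864-83127471), directly after S15, held 62 and 38, then 8 and 28, 89 and 22, 416 and 369, and 425 and 441. It was −1.37 at 30 min (adjusted p at that time 0.00113) and 3.03 at 4 h (SE 0.35, adjusted p 2.48e-14). The 2 weak elements inside genes were also called: S4 (chr11:83015552-83017112) in Slfn8 went from 12 and 5 to 78 and 79 at 4 h, a gain of 2.68 (SE 0.32, adjusted p 6.13e-09), and S2 (chr11:82958975-82960619) in Slfn5 from 3 and 2 to 16 and 24 at 2 h, a gain of 1.72 (SE 0.40, adjusted p 0.00116). The S2 call was lost without either UT library (adjusted p 0.0130 and 0.0301).

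Counted time by time at the same thresholds, 5 elements were higher at 30 min (S2, S6, S7, S8 and S9) and 4 lower (S13, S14, S15 and S16), against 16.3% higher and 13.1% lower over all elements. At 1 h 5 were higher (S4 and S6 to S9) and 0 lower (19.6% and 15.1% over all elements). At 2 h 16 were higher and at 4 h 14, with 0 lower at either time, against 21.3% higher and 19.7% lower at 2 h and 20.5% higher and 15.8% lower at 4 h over all elements.

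**Figure D2:**
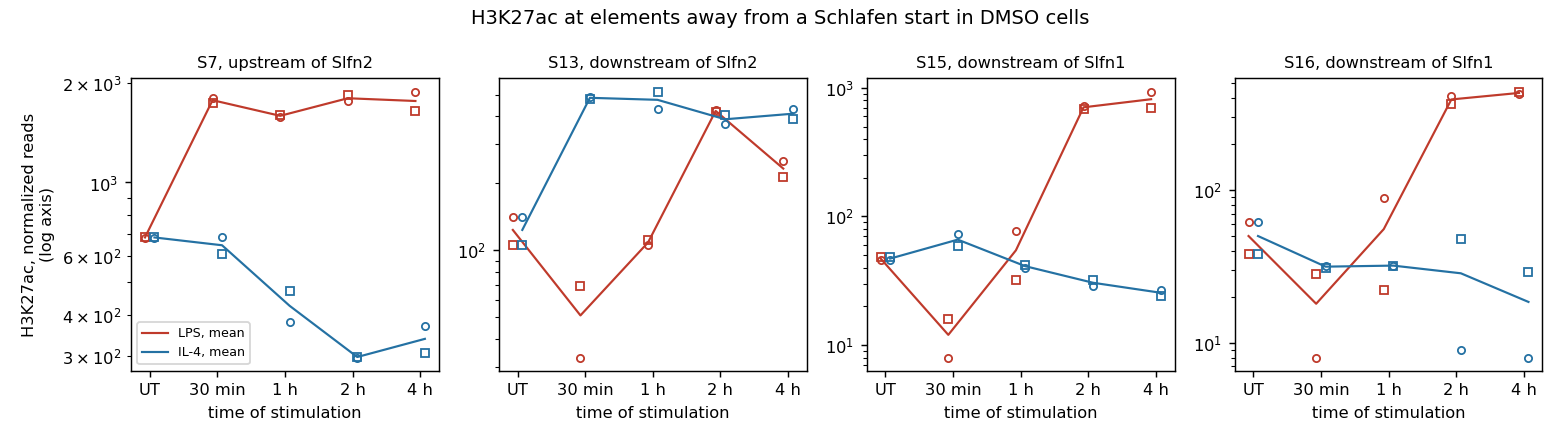
H3K27ac in DMSO cells at S7, S13, S15 and S16, which lie away from a Schlafen start, drawn as in the plot of the starts. Log axes differ between panels. S7 had risen by 30 min of LPS and fell below UT late after IL-4. S13, S15 and S16 were below UT at 30 min of LPS, and S13 stood at 489 and 480 after 30 min of IL-4.

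The second comparison asked how the cluster responded to IL-4. These 8 libraries are set against the same UT libraries as the LPS course, so the LPS and IL-4 differences are not independent of each other. Of 17 elements tested (S2 was too low), 5 were called, 2 higher and 3 lower, and over all 47018 elements tested 24.7% were called, 13.6% higher and 11% lower. S13 was the strongest: from 141 and 106 in UT it went to 489 and 480 at 30 min, 433 and 516 at 1 h, 370 and 406 at 2 h and 433 and 389 at 4 h. The gain was 1.94 at 30 min and 1.71 at 4 h (SE 0.12, adjusted p 8.97e-20), and all 8 libraries lay above UT. The Slfn1 start, S14, went from 158 and 129 to 306 and 263 at 30 min and 311 and 343 at 1 h, and was back at 174 and 190 by 4 h, a largest gain of 1.17 (SE 0.13, adjusted p 5.19e-10).

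S7, which rose after LPS, fell after IL-4, from 681 and 685 to 683 and 611 at 30 min, 379 and 471 at 1 h, 297 and 299 at 2 h and 369 and 307 at 4 h. The log2 difference was −1.18 at 2 h (SE 0.11, adjusted p 6.29e-15). S6 fell from 384 and 357 to 172 and 186 at 4 h by 1.03 on the log2 scale (SE 0.12, adjusted p 9.24e-12), a call that was lost without the first UT library (−0.98) or the first 4-h IL-4 library (−0.97), both just under the threshold of 1. S17 stood at 60 and 18 after 2 h of IL-4, a difference of −1.06 (SE 0.28, adjusted p 0.000707). The 2 replicates differed widely, and the call was lost without the second of them (−0.31, adjusted p 0.0334) or the second UT library (−0.97).

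Other elements stayed closer to UT after IL-4. S12 held 750 and 788 at 30 min against 498 and 453 in UT, with a difference of 0.69 (SE 0.09, adjusted p 7.21e-09) that was under the threshold. The start elements of the other Schlafen genes had largest differences of 0.40 (S3), 0.32 (S5), 0.17 (S10), −0.28 (S18) and −0.38 (S1), none of them called.

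A direct test of LPS against IL-4 in the DMSO libraries called 16 of the 18 elements, 14 higher after LPS and 2 lower, against 58.4% of 50587 elements (29.2% in each direction). The largest differences were at S17 (4.81, SE 0.27), S15 (4.74, SE 0.26) and S16 (4.38, SE 0.44). S14 was 3.12 higher at its largest difference (SE 0.15), but at 30 min it was 2.15 lower after LPS than after IL-4 (log2 difference −2.15, adjusted p at that time 4.36e-16). S13 differed by −3.21 at 30 min (SE 0.18, adjusted p of the F-test 9.37e-21), by −2.07 at 1 h, by 0.12 at 2 h and by −0.81 at 4 h. It and S12 (−1.02 at 30 min, adjusted p 9.56e-14) were the elements whose largest difference was lower after LPS. At 30 min alone 5 elements were lower after LPS (S11, S12, S13, S14 and S15; 17.1% of all elements) and 2 higher (S6 and S7; 12.4%). The S12 call was lost without the second 30-min IL-4 library or the first 30-min LPS library. At S5 the difference was 1.03, a call lost with quantile normalization (0.69), and S10 stayed under the threshold (0.90, adjusted p 5.12e-19), as did S11 (−1.98, adjusted p 0.0106).

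**Figure D3:**
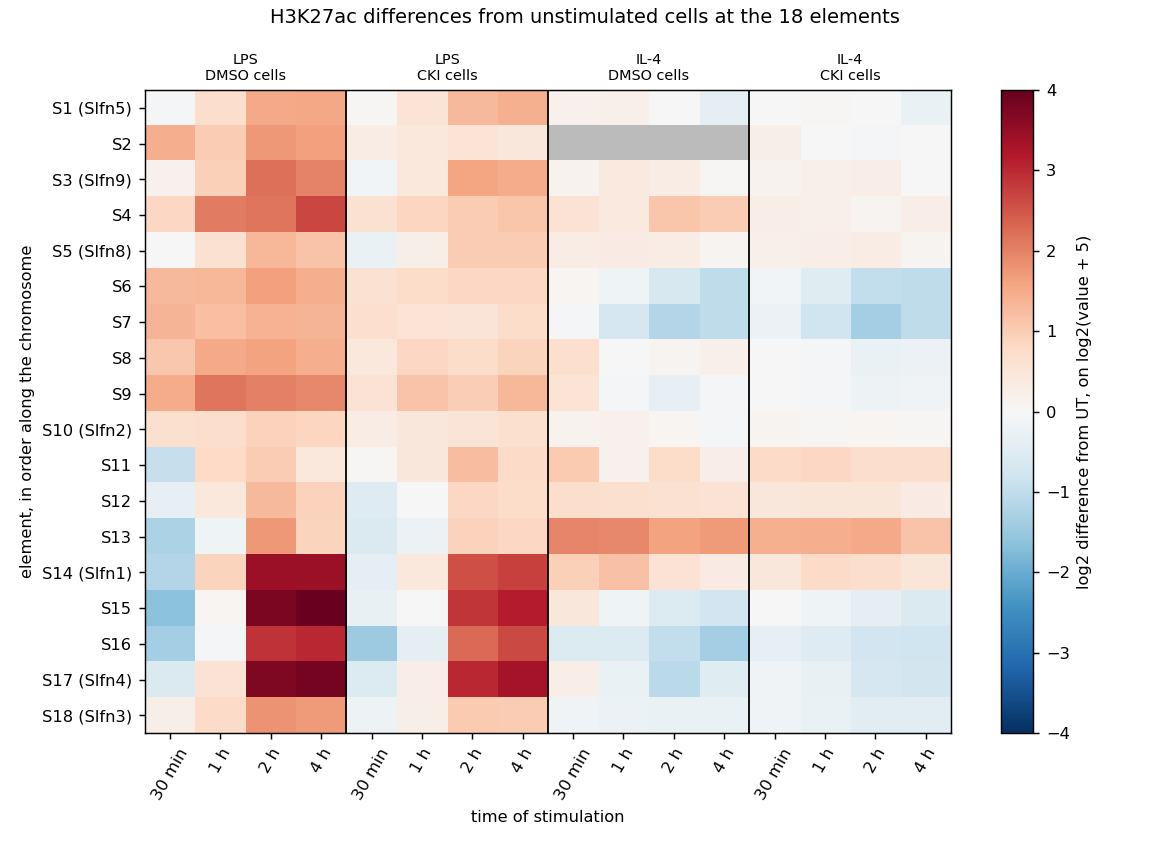
Heat map of the log2 difference from UT at each of the 18 elements (rows, in order of position) and each time (columns), after LPS and after IL-4, in DMSO cells and in CKI-treated cells, with red for higher and blue for lower than UT and grey where S2 was too low to test. In DMSO cells the differences after LPS ran up to 3.96 at S15, and after IL-4 those of S13 were the highest (1.62 to 1.94), and the CKI columns show S13 to S17 with smaller differences late after LPS.

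The same time courses could be read in the CKI-treated cells, each against UT cells that received a CKI, over 314 libraries for LPS and 305 for IL-4 with the CKI as a term in the fit. After LPS 11 of 18 elements were called, all higher, against 28.9% of all elements (15.4% higher). These were S1, S3, S4, S5, S9, S11 and S14 to S18. The Slfn1 start S14 differed by −0.37 at 30 min, 0.43 at 1 h, 2.57 at 2 h and 2.72 at 4 h (SE 0.085, adjusted p 2.75e-134). At 4 h S17 differed by 3.32 and S15 by 3.13. After IL-4 3 elements were called, 1 higher and 2 lower (8.84% of all elements, 5.33% higher and 3.5% lower). These were S13, higher, by 1.41 at 30 min and 1.51 at 2 h (adjusted p 3.31e-112), and S6 (−1.02) and S7 (−1.37) lower. S14 gained 0.76 at 1 h (adjusted p 6.57e-39), under the threshold.

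The CKIs fall into 6 consecutive runs in the column order of the table that share no compound, and sequencing depth and contrast differ between these runs. Fitted within each run, S14 was called after LPS in 6 of 6, with 4-h differences from 2.29 to 3.18, and so were S17 (2.97 to 3.70) and S15 (2.46 to 3.83). S1, S3, S9 and S16 were called in 6 of 6 as well, S5 in 5 and S4 and S18 in 4. S11 and S13 were called in 3, S6 and S8 in 2, S12 in 1 and S2, S7 and S10 in 0. After IL-4 S13 was called in 6 of 6 runs, with 30-min differences from 1.17 to 1.66, S7 in 6 of 6 and S6 in 5. S11, S14, S16 and S17 were each called in 1. The share of all elements called within each run was not counted, so these counts have no background beside them.

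Taken CKI by CKI, the late LPS gain at Slfn1 was present under every compound with the libraries to compute it. Over 57 CKIs, the mean difference at 2 h and 4 h from the UT cells of the same CKI was above 0 in 57 at S14, from 1.51 with Bafetinib to 3.48 with Tofacitinib (median 2.74). The DMSO value was 3.44, and 53 CKIs lay below it. Single libraries stand behind most of these values, so no test was made. At S17 the range was 1.22 (PH797804) to 5.65 (Apatinib), with a median of 3.13 and a DMSO value of 3.78, and at S15 it was 0.84 (Losmapimod) to 5.60 (NMS1286937), with a median of 3.07. S1, S3, S5, S7 and S9 were also above 0 in all 57. At S6, S7 and S18 every one of the 57 CKIs had a smaller late gain than DMSO. At the other elements the number of CKIs below DMSO ran from 18 (S11) to 56 (S9).

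The early dip after LPS was less uniform. At 30 min S14 lay above its UT value in 15 of 58 CKIs (median −0.37, DMSO −1.18), S13 in 5 of 58 (median −0.59, DMSO −1.26), S16 in 8, S17 in 22 and S15 in 24. For IL-4, the gain of S13 at 30 min and 1 h was above 0 in 58 of 58 CKIs, from 0.08 with Vatalanib to 2.22 with MK2206 (DMSO 1.93). At 2 h and 4 h it was again above 0 in 58 of 58, with Filgotinib lowest at 0.50. S6 and S7 lay below UT at these times in 58 of 58, with medians of −1.06 and −1.21.

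**Figure D4:**
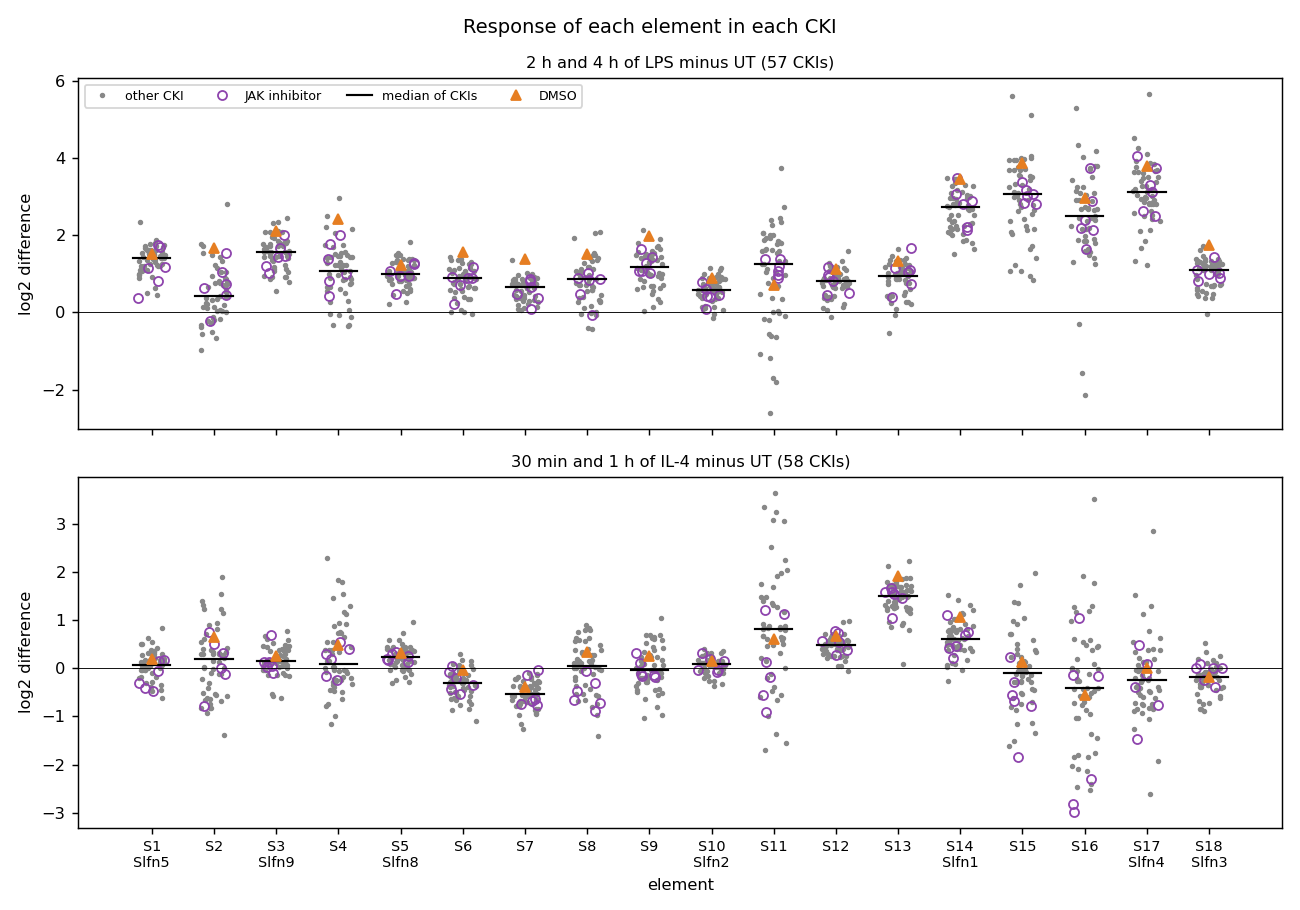
Log2 difference from the UT cells of the same CKI at each of the 18 elements, late after LPS (2 h and 4 h) and early after IL-4 (30 min and 1 h), with grey points for single CKIs, open circles for the 6 JAK inhibitors, a bar at the median and a triangle at the DMSO value. At S14 all 57 points lay between 1.51 and 3.48 after LPS, at S13 all 58 lay above 0 after IL-4, and S11 and S16 scattered most widely.

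Next, the level of each element under each CKI was compared with DMSO over the stimulated and UT libraries of a stimulus, with calls at an adjusted p under 0.05 and a log2 difference over 0.5. Of the pairs of 1 element and 1 CKI, 392 were called for LPS, 336 of them lower (85.7%), and 276 for IL-4, 140 of them lower (50.7%). Over all elements 36.4% of pairs were called for LPS (32.3% higher and 4.04% lower) and 39.2% for IL-4 (36.2% higher and 3.03% lower). On the scale of the authors the median element of the table was 0.39 higher under a CKI than under DMSO for LPS and 0.41 for IL-4, so that lower calls stand against that shift. With quantile normalization, which removes it, 64 pairs were called for LPS, 100% of them lower, and 84 for IL-4, 91.7% lower. With totals made equal 442 pairs were called for LPS (89.4% lower) and 387 for IL-4 (69.3% lower). DMSO libraries lie outside all 6 runs, and their contrast (the median value in the top 10% of elements over that in the bottom 10%) was 53 to 134, against 3.34 to 67.2 in the CKI libraries. A difference between CKI and DMSO therefore cannot be told apart from one between runs.

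By element, the calls for LPS were lower at S6 for 52 of the 58 CKIs, at S5 for 45, at S7 for 44, at S12 for 43, at S8 for 41 and at S10 for 37. At the start of Slfn1, S14 was called higher for 2 CKIs and lower for 0, and S15 downstream of it was called for 0. Between these extremes stood S1 with 24 lower, S3 with 18, S18 with 13, S16 with 9 and S17 with 8. These calls average UT and all LPS times, so they do not describe the late gain. That gain at S14 was below the DMSO value of 3.44 in 53 of 57 CKIs (median 2.74). The elements called higher were mainly the weak S2 (38 CKIs), S4 (8) and S11 (5). For IL-4 the weak elements S9, S2 and S4 were higher for 47, 46 and 31 CKIs, and S12, S5 and S8 were lower for 35, 27 and 22.

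By compound, the counts are to be read beside the share of all elements called for the same compound. AZD2014, an inhibitor of mTOR, had 13 of 18 elements called for LPS (12 lower; 53.3% of all elements), with a mean log2 difference of −0.759 over the 18. AMG208 (44.6% of all elements), PH797804 (58.2%) and Omipalisib (58.9%) followed with 12 each. The lowest means after AZD2014 were those of PH797804, a p38 inhibitor (−0.674), and Afatinib (−0.661, 11 elements called, 50.2% of all elements), and the highest those of Talmapimod (0.181), XL413 (0.137) and GSK461364 (0.133). Midostaurin had 8 elements called, 7 of them lower, with a mean of −0.277. For IL-4, the JAK inhibitors Filgotinib (50.98% of all elements) and BMS911543 (55.3%) had most called elements with 11 each, and AZD2014 (50.1%), AMG208 (44.8%) and Vatalanib (52.2%) had 9 each. The CKIs with most called elements, except PH797804, belong to run 1, as does Afatinib, so that the order of the compounds and the run cannot be told apart. Mean differences were lowest for Filgotinib (−0.308), BMS911543 (−0.191) and Capmatinib (−0.179) and highest for Lapatinib (0.204), Silmitasertib (0.195) and Mubritinib (0.189), and Midostaurin had 2 elements called. Tofacitinib had 0 of 18 called for LPS and 1 for IL-4. Over all elements for LPS, 33.5% were called with Midostaurin and 2.08% with Tofacitinib. Their shares for IL-4 are not given here, so the IL-4 counts of Midostaurin and Tofacitinib are not read as a result.

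When each CKI was instead compared with the other CKIs of its run, 15 pairs were called for LPS, 14 of them lower, against 1.15% of pairs over all elements (0.742% higher and 0.406% lower). For IL-4 8 were called against 1.25% (0.848% higher and 0.4% lower). PH797804 accounted for 12 of the 15, with S7 (−1.12, SE 0.13, adjusted p 1.39e-13), S6 (−1.01, adjusted p 2.36e-10) and S10 (−0.85, adjusted p 1.03e-10) among 11 that were lower, and S2 (1.17) higher. Of all elements, 42.6% were called for this CKI against its run. Its 30-min LPS library held an estimated 346119 reads, the fewest of the 557 libraries with an estimate, with 4 elements of the cluster at 0, and the contrast of its libraries was 4.81 at 2 h and 3.37 at 4 h of LPS against 14.7 in UT. Without the 30-min library 9 elements were called against the run (8 lower), and 49.9% of all elements. The part of depth and contrast in these calls was not tested. Afatinib had S2 (−0.86) and S8 (−0.65) lower and Pacritinib S12 (−0.51).

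In the IL-4 libraries, the Slfn5 start S1 was lower with Filgotinib than with the other CKIs of its run (log2 difference −0.59, SE 0.11, adjusted p 0.000502), as was S15 (−1.20, adjusted p 0.0133). With BGT226, an inhibitor of PI3K and mTOR, S7, which fell after IL-4 in DMSO cells, was higher than in its run (0.85, SE 0.12, adjusted p 2.05e-09), and so was S8 (0.61). The other 4 were S6 higher with Afatinib (0.51, adjusted p 0.0115), S17 higher with Omipalisib (1.29, adjusted p 0.00681), and S2 (0.79) and S4 (1.00) higher with PH797804.

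**Figure D5:**
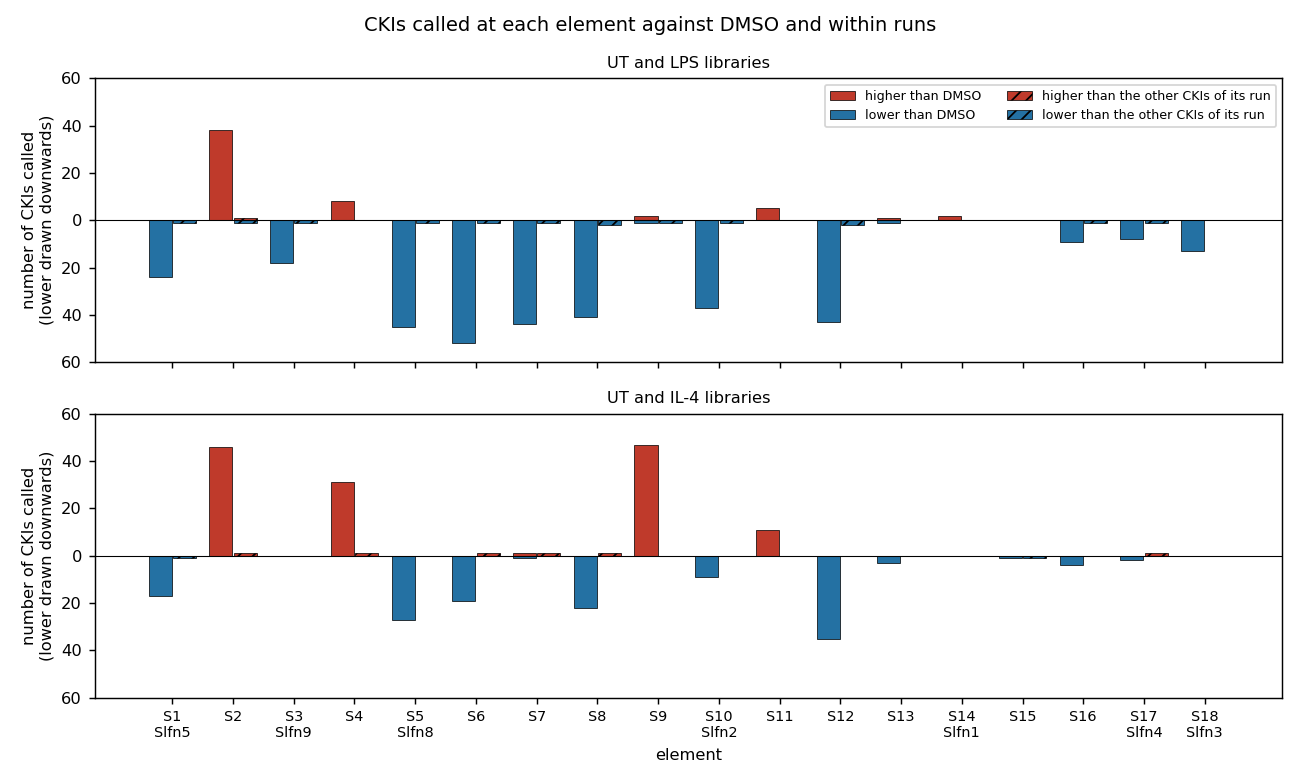
Number of the 58 CKIs for which each element was called, with higher calls drawn upwards and lower calls downwards from 0, against DMSO (plain bars) and against the other CKIs of the run (hatched bars), in the UT and LPS and the UT and IL-4 libraries. S6 was lower than in DMSO for 52 CKIs with LPS, S14 was lower for 0 and higher for 2, and the hatched bars reach at most 2.

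JAK kinases carry the signals of both the interferon receptor and the IL-4 receptor, and 6 of the CKIs were JAK inhibitors: BMS911543, Filgotinib, Momelotinib, Pacritinib, Ruxolitinib and Tofacitinib. The level of each element under them, relative to the mean of all CKIs at the same time, was tested as a class against the other CKIs with the run as a covariate (adjusted p under 0.05 and a log2 difference over 0.25). In limma 0 of the 18 elements were called late after LPS, early after LPS or after IL-4, and over all elements 0.00169%, 0% and 0.00507% were called. At an unadjusted p under 0.05 the elements counted 0, 1 and 4, and all elements 4.36%, 2.74% and 4.97%. Late after LPS, S14 differed by −0.13 (95% confidence interval −0.351 to 0.100, adjusted p 0.980) and S17 by −0.17 (−0.476 to 0.143). A difference of 1 lies outside both intervals.

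The single inhibitors spread widely at Slfn1. Relative to the mean of all CKIs, S14 late after LPS was lower with Filgotinib (−0.66) and BMS911543 (−0.49) and higher with Tofacitinib (0.51), with Ruxolitinib (−0.12), Pacritinib (−0.10) and Momelotinib (−0.05) between. Against its own UT cells the gain at S14 was 2.14 with BMS911543, 2.21 with Filgotinib, 2.80 with Pacritinib, 2.88 with Momelotinib, 3.07 with Ruxolitinib and 3.48 with Tofacitinib, the highest of the 57. Midostaurin stood at 2.30. These values are not corrected for the run. BMS911543 and Filgotinib belong to run 1, where the S14 difference at 4 h was the lowest of the runs (2.29), and Ruxolitinib to run 5, where it was the highest (3.18). Against the other CKIs of its run, no CKI was called at S14. After IL-4 the elements with an unadjusted p under 0.05 were S1 (−0.29, SE 0.08, p 0.000347 from limma, adjusted p 0.307), S15 (−0.43, adjusted p 0.786), S14 (−0.19, adjusted p 0.821) and S17 (−0.38, adjusted p 0.919), none of which survived the adjustment. The level of S13 after IL-4 differed by −0.09 for the class (95% confidence interval −0.222 to 0.034). Filgotinib was at −0.67 there, and at −0.92 and −1.44 for S1 and S15.

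For comparison with the interferon response as a whole, a list of 30 interferon-stimulated genes was read by the element at each start. Of the 27 with an element, 25 rose after LPS in DMSO cells, 1 fell at its largest difference (Samhd1, −1.41 at 30 min and 1.31 at 2 h) and Irf9 was not called (0.87). Their medians were −0.05, 1.05, 1.94 and 1.89 at the 4 times, beside 0.08, 0.78, 1.74 and 1.58 for the 18 Schlafen elements. The sets are not alike, since the first holds start elements only and the second also elements away from starts. Cxcl10, a chemokine, rose by 4.28 (SE 0.12), Ifit1 by 2.87 and the ubiquitin-like modifier Isg15 by 2.55. Ifit2, like Slfn1, was below UT at 30 min (−1.30) before it stood at 2.12. Counted by time, 4 of the 27 were higher and 2 lower at 30 min, 14 higher at 1 h and 26 at each later time. After IL-4 1 of the 27 was called, Irf7, which encodes a factor that drives interferon genes (1.08, SE 0.11).

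The 14 protein-coding neighbours with a start within 250 kb had 7 elements at their starts, some shared between genes. Late after LPS these moved less, with medians of 0.18 at 2 h and 0.11 at 4 h, but 0.37 at 30 min. After LPS, 2 of these 7 rose (Gas2l2 by 1.69 at 1 h and Rffl by 1.37 at 30 min) and 0 fell. Over all elements 29% were higher and 24.6% lower. After IL-4, 6 could be tested, of which Nle1 rose (1.28) and Rffl fell (−1.15), against 13.6% and 11% over all elements. Among the 29 elements 25 to 250 kb from a member, 24 could be tested after LPS. Of these 8 were higher and 0 lower, against the same 29% and 24.6%. The genes outside the cluster whose start element most resembled the mean profile of the called start elements, over the 9 DMSO group means and among 12016 genes, were Ifi213 (r = 0.995), Olfr549 (0.994), Trim30d (0.993), 4932438A13Rik (0.992) and Ifi206 (0.992). These values rest on only 9 group means of 2 libraries each, and genes are not replicates. Within the cluster the same profile was shared by S17 (0.983), S15 and S16 (0.974 each) and S14 (0.943), with S17 and S14 themselves part of the mean, but less by S10 (0.782), S6 (0.688), S7 (0.623), S11 (0.456) and S13 (0.213).

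The libraries behind these values differed in depth. The estimated number of reads in elements ran from 2347894 to 5406531 for DMSO (16 of 18 libraries with an estimate) and from 346119 to 6009578 for CKIs (median 1867583), and DMSO replicates correlated at r = 0.960 to 0.982 over elements. Contrast had a median of 75.1 in DMSO and 17.6 in CKI libraries. The cells carried H3K27ac at all 8 macrophage markers examined, among them Spi1 (2082 in UT) and Csf1r (1769), and of 17 markers of other cells 8 had an element, from Pf4 (617) and Klf1 (136) to Ebf1 (0.5). The summed level of these 8 went from 884 and 843 in UT to 223 and 224 after 4 h of LPS, while the 8 macrophage markers summed to 8362 and 8333 in UT, 6162 and 6752 after 30 min of LPS, 5919 and 6053 after 1 h, 6218 and 6092 after 2 h and 8432 and 7533 after 4 h. After LPS 6 of the 8 macrophage markers were called lower and 0 higher. Of the 8 elements of other-cell markers, 5 could be tested after LPS, with 2 called lower and 0 higher. Over all elements 24.6% were called lower. Pf4 held most of the summed level of the other-cell markers in UT. In bulk chromatin, a change in all cells and a change in the share of cells that carry the mark cannot be told apart, and the part of other cells in the Schlafen values was not tested.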

How the data were processed

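The authors mapped single-end H3K27ac ChIP-seq reads to mm10 with ShortStack (the submitters' processing notes name Bowtie and SAMtools), counted them in cis-regulatory elements and scaled each library. The deposited values are these normalized read counts rounded by the authors, a score and not raw counts, so count models were not applied. ShortStack can assign reads with several matches by local density, which touches S11, S16 and S17 most.

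Groups followed the treatment labels. Elements with a mean of at least 10 over a comparison's libraries were tested with limma 3.58.1 (R 4.3.3) on log2(value + 5), with p-values adjusted after Benjamini and Hochberg over all elements. The pseudocount of 5 understates the change of low elements. The text names all elements within 25 kb of a Schlafen start, the 6 JAK inhibitors, Midostaurin, in each comparison the 3 CKIs with most called elements and the 3 with the largest mean difference in each direction, and the 5 genes most like the cluster. CKIs at the ends of a range and pairs called within a run were named after their values were seen, as were single genes of the lists. The members and lists were chosen with earlier results of these data known. The reads of a library were estimated from the spacing of its values. Runs came from the column order and served only as a technical batch. Motifs and sequences came from the RefSeq GRCm38.p6 reference. The limma steps were tested on simulated data.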

Additional observations from a re-analysis of the deposited data

Results flagged for a closer look

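At S6, S7, S13 and S17 LPS and IL-4 moved H3K27ac past the threshold in opposite directions from the same UT libraries at the same time, and the difference itself was tested with limma in the DMSO libraries. S7, upstream of Slfn2, differed between LPS and IL-4 by 2.57 at 2 h (1.39 against −1.18, SE 0.10, adjusted p 2.59e-24) and by 2.37 at 4 h (1.36 against −1.01, adjusted p 4.16e-23). S6, at Slfn10-ps, differed by 2.50 at 4 h (1.47 against −1.03, adjusted p 5.04e-23), and its IL-4 call was lost without the first 4-h IL-4 library (−0.97) or the first UT library (−0.98). S17, near Slfn4, differed by 4.81 at 2 h (3.74 against −1.06, adjusted p 2.64e-19), where its IL-4 replicates held 60 and 18, and its IL-4 call was lost without the second of these (−0.31) or the second UT library (−0.97). S13, downstream of Slfn2, went the other way, by −3.21 at 30 min (−1.26 against 1.94, SE 0.18, adjusted p 1.07e-18).

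At S16, downstream of Slfn1, LPS and IL-4 differed by 4.38 at 4 h (3.03 against −1.35, SE 0.44, adjusted p 1.30e-11), but it was not called in the IL-4 course (adjusted p 0.0263) and shares 44.9% of its 51-base words with S17. Groups of 2 libraries are too small for a test of single libraries that stand apart, so none was made within the DMSO groups.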

How the results depend on the processing

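None of the alternatives run turned a direction. For 61 results of single elements (the DMSO and CKI time courses, LPS against IL-4, and the JAK class at S14 and S17), 1050 of 1090 values under an alternative stayed on their side of the threshold, 38 lost the call and 2 gained it (S10, after LPS and in LPS against IL-4, at a log2 threshold of 0.5). The called elements numbered 15 to 18 for LPS, 3 to 7 for IL-4 and 14 to 17 for LPS against IL-4, and leaving out 1 library gave 16 to 17, 4 to 6 and 14 to 17. A pseudocount of 20 left 3 elements for IL-4. In CKI cells, run 1 alone gave 7 elements for LPS, and for IL-4 run 4 alone gave 6 and a pseudocount of 1 gave 5. Pairs against DMSO were 392 for LPS (85.7% lower) and 276 for IL-4 (50.7% lower), and the lower share changed with the reference and the scaling. With the other CKIs of the run as reference they were 15 (93.3% lower) and 8 (25% lower). With the mean of all 58 CKIs they were 52 (46.2% lower) and 23 (39.1% lower), and with quantile normalization 64 (100% lower) and 84 (91.7% lower). With 1 DMSO replicate as reference they were 346 to 348 and 226 to 249. The cause of these changes was not tested. The class test of JAK inhibitors called 0 elements with any 1 inhibitor left out. Without the library with fewest reads, a setting chosen after seeing the data, 392 pairs were called for LPS, 335 of them lower against 336 with it, and PH797804 had 10 elements called in place of 12.

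Same-numbered replicates did not deviate together (r from −0.087 to 0.066 over 36 pairs of groups, 0 above 0.1), so the numbers do not pair the samples. With a replicate block 17 elements were called for LPS, 5 for IL-4 and 17 for LPS against IL-4. Depth limits the weak elements S2, S4 and S11, and the CKI values, which rest mostly on 1 library each.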
